A study of Mus musculus with 20 samples.

Results

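The overnight fasting response of wild-type AgRP neurons was measured from raw gene counts of 10 of the 20 libraries in the series, 5 from fasted and 5 from fed mice. It was examined across 13237 expressed genes, of 23129 genes in the deposited table. The wild-type mice were C57BL/6 and 25 to 30 days old and carried AgRP-Cre/+ and Ai9/+, and they were littermates of knockouts that also carried Phf6 flox/y. Fed mice kept their food, and fasted mice had only water from 5 pm on the day before the experiment. Hypothalamic tissue was punched out and dissociated, and cells with tdTomato, the red reporter that Ai9 turns on after Cre has acted, were sorted, with 1000 cells in each sample. The reporter marks any cell in which Cre was active at some time, and the labels do not say how the AgRP-Cre driver was made. Separate mice for the replicates are not named in the labels either, and the p-values thus describe how samples vary, which may be technical.

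AgRP neurons lie in the arcuate nucleus of the hypothalamus and release agouti-related peptide (Agrp), neuropeptide Y (Npy) and the inhibitory transmitter GABA. Hormones of energy shortage and fullness, such as ghrelin and leptin, act on them directly. Their firing drives a search for food, and fasting is the usual way to raise it.

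Fasting changed most of the expressed genes. Of 13237 tested genes, 3920 rose (29.6%) and 4138 fell (31.3%) at a Benjamini-Hochberg adjusted p under 0.05 in edgeR's quasi-likelihood test. Of these, 508 rose (3.84%) and 415 fell (3.14%) by more than 2-fold, in a test of the fold change against 2. For 2973 genes (22.5%) all 5 fasted values lay above the 5 fed ones, and for 2989 genes (22.6%) all lay below. The median size of the change over all tested genes was 0.455 on the log2 scale. The signed median was -0.03 and moved by -0.26 when libraries were scaled by their totals without the trimmed mean of M values (TMM), which turned the split to 2458 rises and 6229 falls. Changes are therefore given relative to the bulk of the genes. All levels are CPM, counts relative to the TMM-scaled total of the library, and changes are log2 fold changes, fasted minus fed, ± SE.

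Before the single genes, the libraries need a description, since the 5 fasted samples fell into 2 sets. Fed libraries held 11500753 to 13060922 counts and fasted ones 8494499 to 10000278 (2-sided exact permutation p = 0.00794, the smallest that 5 against 5 allows). The first principal component, with 63.2% of the variance, placed all fed libraries between -49.5 and -47.8 and all fasted ones between 44.3 and 54.7. The second, with 11.3%, placed fasted replicates 1 and 2 at 34.4 and 33.5 and replicates 3 to 5 at -18.4, -29.4 and -26.7, and the labels name no batch for either set. The median coefficient of variation of genes at 10 CPM or more was 6.79% over the fed libraries and 13% over the fasted ones, against 6.55% in fasted replicates 1 and 2 and 8.14% in replicates 3 to 5. Each comparison was therefore also made with either set alone against the same 5 fed libraries, and 2810 genes rose (21.2%) and 2846 fell (21.5%) with the full group and with either set. The 2 set comparisons share their fed libraries, so a call in both is not independent support. Phf6, the chromatin gene floxed in the knockouts, was detected in all 10 wild-type libraries and itself fell, from 271, 264, 277, 292 and 278 CPM in fed to 142, 119, 116, 129 and 135 CPM in fasted libraries (-1.11 ± 0.070, edgeR adjusted p = 1.42e-13).

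**Figure D1:**
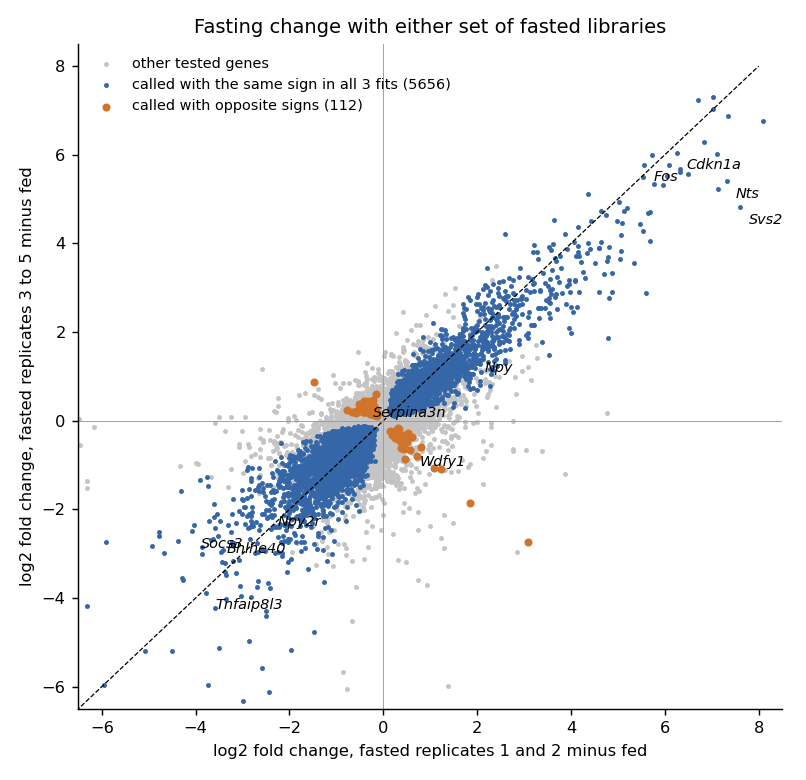
Each point is a gene, with its log2 fold change in fasted replicates 1 and 2 (x axis) and in fasted replicates 3 to 5 (y axis), both against the same 5 fed libraries. Blue points mark the 5656 genes called with the same sign in all 3 fits, orange points the 112 genes called with opposite signs, and the dashed line equal change; Svs2 and Nts lie below that line on the right, and 29 genes lie outside the axes.

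The 20 largest rises by the naming rule held genes of varied roles. That rule admits only genes whose fed and fasted values do not overlap. Cdkn1a (chr17:29090976-29100727, plus strand) encodes p21, an inhibitor of cell-cycle kinases, and stood at 5.11, 4.09, 5.14, 4.36 and 3.54 CPM in fed and 372, 322, 284, 313 and 290 CPM in fasted replicates 1 to 5. Its fasted values were close to each other and far above every fed value, a 70.6-fold rise (6.14 ± 0.12, edgeR adjusted p = 3.91e-25). Ptk2b (chr14:66153257-66281052, minus strand), a calcium-activated tyrosine kinase, was at 1.105, 0.574, 1.43, 0.623 and 1.69 CPM in fed and 27.7, 27.2, 28.4, 27.1 and 30.8 CPM in fasted libraries (4.70 ± 0.29, edgeR adjusted p = 9.35e-14). It was as high in fasted replicates 3 to 5 as in 1 and 2. The immediate early genes Fos (144, 135, 144, 168 and 163 CPM in fasted libraries, none above 3.45 in fed ones) and Egr1 (49.6, 60.1, 39.2, 45.95 and 45.4 CPM, none above 1.29 in fed ones) encode transcription factors that firing induces, and both also lay far outside the fed range in every fasted library.

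For other large rises the size depended on the set. Nts (chr10:102481756-102490486, minus strand), which encodes the peptide neurotensin, was at 0.552, 1.15, 0.642, 2.26 and 1.21 CPM in fed and 135, 237, 56.2, 35.02 and 53.95 CPM in fasted libraries (6.48 ± 0.69, edgeR adjusted p = 3.99e-09). Svs2 (chr2:164235929-164238466, minus strand), known as a gene of a seminal vesicle protein, was at 0.483, 0.646, 0.571, 0.701 and 0.643 CPM in fed and 114, 130, 16.7, 16.4 and 18.9 CPM in fasted libraries (6.58 ± 0.70, edgeR adjusted p = 4.78e-09). In both genes fasted replicates 1 and 2 were the highest, and fasted replicates 3 to 5 were still far above all fed values. The log2 fold change was 7.61 for Svs2 with replicates 1 and 2 and 4.82 with replicates 3 to 5, and it was 7.32 and 5.40 for Nts. The hyaluronan receptor gene Layn (5.06 and 3.83), the organic anion transporter gene Slco1a1 (4.88 and 3.34), the hedgehog-binding gene Hhip (4.29 and 3.23) and the potassium channel subunit gene Kcnab1 (4.08 and 3.18) parted in the same direction. The chromatin protein gene Hmgb2 parted the other way, at 69.8, 67.3, 95.7, 97.98 and 101 CPM against 8.28, 8.83, 12.6, 7.48 and 7.55 CPM in fed libraries (3.27 ± 0.16). Of the 20 largest rises by the naming rule, 13 had both values of replicates 1 and 2 above all of replicates 3 to 5, and 2 had both below. Over all 13237 tested genes these shares were 25.6% and 22.3%, and among the 508 genes that rose by more than 2-fold they were 43.5% and 12.8%.

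Some of the large rises are best known from other cells. Ccl17 (chr8:94810453-94812036, plus strand), a chemokine gene, was at 8.77, 6.96, 6.995, 6.93 and 7.95 CPM in fed and 160, 162, 110, 104 and 118 CPM in fasted libraries (4.12 ± 0.13, edgeR adjusted p = 5.52e-20). Cd68 (chr11:69664213-69666153, minus strand), a lysosomal glycoprotein gene widely used as a macrophage marker, was at 0.828, 1.87, 0.857, 1.09 and 1.12 CPM in fed and 38.3, 36.3, 23.9, 21.7 and 33.2 CPM in fasted libraries (4.72 ± 0.27, edgeR adjusted p = 1.79e-14). By the naming rule, neither gene had overlapping groups. The 10 microglia and macrophage markers summed to 24.8 to 31.0 CPM in fed and 30.9 to 37.4 CPM in fasted libraries, and 7 of them, Cx3cr1, Tmem119, Csf1r, C1qa, C1qb, Ptprc and Trem2, stayed under 0.5 CPM in all 10 libraries. Other rises of this size were Nfkbiz, an inducible regulator of NF-kappa-B (3.49 ± 0.18), Acot12, an acyl-CoA thioesterase (3.26 ± 0.39), Ppef1, a calcium-binding protein phosphatase (3.12 ± 0.18), Fam107b (3.64 ± 0.11) and the metallothionein genes Mt1 (4.91 ± 0.18) and Mt2 (5.61 ± 0.27). Of Mt2's exon bases, 73.5% are shared with another annotated gene, so its counts are uncertain.

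**Figure D2:**
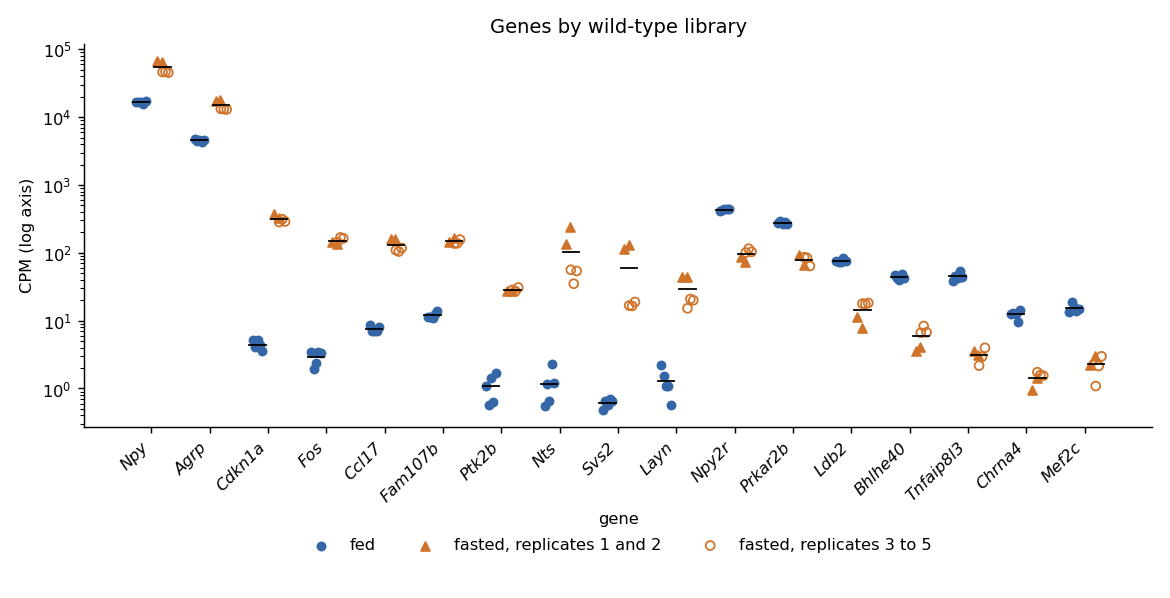
CPM on a log axis for 17 genes in the 10 wild-type libraries, with fed libraries in blue, fasted replicates 1 and 2 as triangles and fasted replicates 3 to 5 as open circles; black lines are group means. All genes shown met the naming rule's condition of no overlap between fed and fasted values. Nts, Svs2 and Layn separate the sets of fasted libraries while Ptk2b does not.

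The promoters of the genes that rose were searched for the binding motifs of activity- and stress-regulated transcription factors. RefSeq promoters (GRCm38.p6) were matched for 10082 of the 13237 tested genes, 381 of those that rose and 295 of those that fell by more than 2-fold, and the 250 bases before the start were searched on both strands. An AP-1 site, the motif of FOS and JUN dimers (TGANTCA), was present in 39 of the 381 promoters of genes that rose (10.2%), in 9 of the 295 of genes that fell (3.05%) and in 3.9% of all. In the 100 bases before the start the shares were 5.77%, 1.02% and 1.37%. The amino acid response motif CARE (TGATGNAA) was in 4.2%, 3.05% and 1.86%, and the full cAMP response element (TGACGTCA) in 3.67%, 1.69% and 2.8%. ETS sites (CCGGAAG) were in 9.97%, 6.1% and 13.8%, and sites of the factor NRF1 (GCGCNTGCG) in 7.61%, 8.14% and 11.6%, so both were less common in the promoters of either changed group than in all promoters. No test was made of these shares, and a match is a run of letters, not a measured binding site.

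Of the 39 promoters with an AP-1 site among genes that rose by more than 2-fold, those of Cd68, Srxn1, Nts and Fam107b are printed to show where it lies, with the site in capitals. They were chosen after the matches were seen. Cd68 holds it at -149 to -143 and -24 to -18 from the start, Srxn1 at -102 to -96 and -45 to -39, Nts at -207 to -201 and Fam107b at -36 to -30, where it overlaps a match to the antioxidant response element (TGACNNNGC). Bases that the GENCODE annotation places in an exon are left out, 68 for Nts and 8 for Srxn1. The Fam107b promoter belongs to a RefSeq start inside the annotated span of the gene (chr2:3570488-3782142). Counts per gene do not show which start was used.
Cd68, chr11:69666171-69666420, minus strand: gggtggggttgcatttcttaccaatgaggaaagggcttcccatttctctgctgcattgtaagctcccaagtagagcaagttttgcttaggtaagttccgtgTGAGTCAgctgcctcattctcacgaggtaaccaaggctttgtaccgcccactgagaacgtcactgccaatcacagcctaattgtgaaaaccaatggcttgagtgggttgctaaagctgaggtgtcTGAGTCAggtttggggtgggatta
Srxn1, chr2:152105274-152105515, plus strand: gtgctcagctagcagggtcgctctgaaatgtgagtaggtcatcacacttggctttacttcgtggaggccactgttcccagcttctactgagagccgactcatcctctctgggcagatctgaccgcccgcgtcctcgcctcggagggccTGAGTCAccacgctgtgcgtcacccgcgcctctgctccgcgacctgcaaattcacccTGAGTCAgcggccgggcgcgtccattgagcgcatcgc
Nts, chr10:102490487-102490668, minus strand: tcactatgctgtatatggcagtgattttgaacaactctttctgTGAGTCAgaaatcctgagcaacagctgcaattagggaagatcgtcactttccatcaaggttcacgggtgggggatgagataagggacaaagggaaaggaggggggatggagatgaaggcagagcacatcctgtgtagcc
Fam107b, chr2:3713208-3713457, plus strand: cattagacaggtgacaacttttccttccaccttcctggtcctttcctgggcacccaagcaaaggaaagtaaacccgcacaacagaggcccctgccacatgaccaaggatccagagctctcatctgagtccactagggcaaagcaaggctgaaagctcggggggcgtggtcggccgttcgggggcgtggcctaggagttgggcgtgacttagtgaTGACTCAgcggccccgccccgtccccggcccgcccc
Srxn1, which encodes an enzyme that repairs oxidised peroxiredoxins, was at 55.5, 55.6, 48.2, 60.4 and 53.7 CPM in fed and 314, 334, 211, 228 and 225 CPM in fasted libraries (2.26 ± 0.14, edgeR adjusted p = 5.87e-14). Fam107b was at 11.2, 11.3, 10.99, 12.4 and 13.7 CPM in fed and 145, 166, 137, 138 and 157 CPM in fasted libraries. All fasted values of both genes were above all fed values.

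Plk2, a kinase gene that neuronal activity and p53 induce, and Btg2, an antiproliferative gene of the mRNA deadenylation machinery, are shown for the full cAMP response element, in capitals, at -62 to -55 in Plk2 and at -166 to -159 in Btg2.
Plk2, chr13:110394794-110395043, plus strand: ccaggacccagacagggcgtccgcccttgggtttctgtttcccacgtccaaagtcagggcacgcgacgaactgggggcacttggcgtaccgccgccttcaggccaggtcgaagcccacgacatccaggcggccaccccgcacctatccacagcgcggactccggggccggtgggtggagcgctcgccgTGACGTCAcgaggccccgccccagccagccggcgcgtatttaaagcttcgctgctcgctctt
Btg2, chr1:134079156-134079405, minus strand: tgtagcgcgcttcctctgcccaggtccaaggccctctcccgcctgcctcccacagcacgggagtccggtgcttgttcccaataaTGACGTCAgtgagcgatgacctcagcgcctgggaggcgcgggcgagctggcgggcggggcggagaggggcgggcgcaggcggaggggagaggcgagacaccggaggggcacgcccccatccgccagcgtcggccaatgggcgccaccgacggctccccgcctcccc
Plk2 was at 14.1, 12.6, 9.14, 8.96 and 12.1 CPM in fed and 55.3, 41.9, 66.5, 66.4 and 65.98 CPM in fasted libraries (2.38 ± 0.15, edgeR adjusted p = 8.28e-14). Btg2 was at 16.6, 14.3, 16.8, 15.7 and 17.3 CPM in fed and 138, 138, 71.6, 61.04 and 57.7 CPM in fasted libraries (2.53 ± 0.18, edgeR adjusted p = 2.57e-12). Plk2 was highest in fasted replicates 3 to 5 and Btg2 in fasted replicates 1 and 2, and neither overlapped the fed range.

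**Figure D3:**
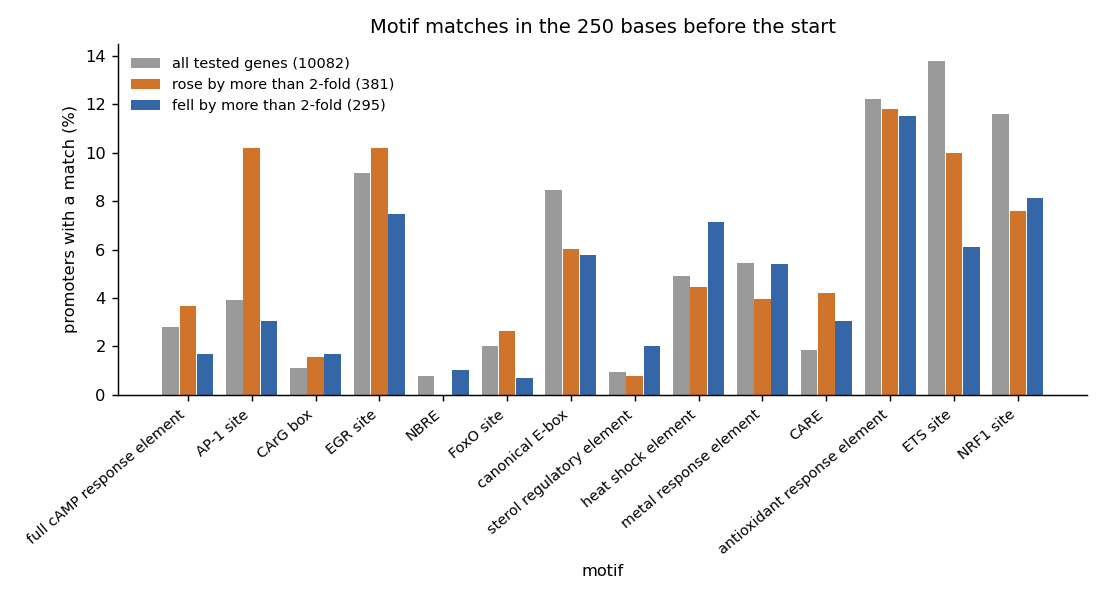
Share of promoters with at least 1 match in the 250 bases before the start, for 14 motifs, in all tested genes (grey, 10082 promoters), genes that rose by more than 2-fold (orange, 381) and genes that fell by more than 2-fold (blue, 295). The AP-1 site stands at 10.2% in the genes that rose against 3.9% in all, and the ETS site at 6.1% in the genes that fell against 13.8% in all.

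The largest falls held receptors, signalling enzymes and transcription factors. Tnfaip8l3 (chr9:54023405-54068388, minus strand), a phosphoinositide transfer protein gene, was at 38.1, 44.9, 42.1, 54.5 and 44.1 CPM in fed and 3.51, 3.1, 2.17, 2.93 and 3.97 CPM in fasted libraries (-3.83 ± 0.24, edgeR adjusted p = 1.39e-13). Chrna4 (chr2:181018380-181043546, minus strand), the alpha-4 subunit of nicotinic acetylcholine receptors, was at 12.5, 12.9, 12.6, 9.66 and 14.2 CPM in fed and 0.935, 1.42, 1.74, 1.58 and 1.54 CPM in fasted libraries (-3.09 ± 0.25, edgeR adjusted p = 2.04e-11). Both genes were low in every fasted library of either set. The histamine H1 receptor gene Hrh1 (-2.35 ± 0.25), the NMDA receptor subunit gene Grin3a (-2.34 ± 0.26), the phospholipase C gene Plch1 (-3.27 ± 0.26) and the vesicle protein gene Rph3a (-2.51 ± 0.15) fell as well. Ldb2 (chr5:44472132-44799680, minus strand), a cofactor of LIM-domain transcription factors, was at 76.01, 73.2, 74.4, 82.8 and 76.96 CPM in fed and 11.5, 7.75, 17.8, 17.6 and 18.2 CPM in fasted libraries (-2.39 ± 0.14, edgeR adjusted p = 4.69e-14). Its 2 lowest values were those of fasted replicates 1 and 2. The transcription factor genes Bhlhe40 (-2.90 ± 0.17), Mef2c (-2.76 ± 0.24), Zfpm2 (-2.39 ± 0.24), Irf3 (-2.27 ± 0.16) and Rxrg, a retinoid receptor (-2.54 ± 0.24), fell too.

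Of the 20 largest falls by the naming rule, 5 had both values of fasted replicates 1 and 2 below all of replicates 3 to 5, and 0 had both above, against 22.3% and 25.6% over all tested genes. Socs3, which restrains leptin receptor signalling, was such a case, at 16.6, 13.5, 17.7, 18.4 and 16.7 CPM in fed and 0.818, 1.16, 1.95, 4.39 and 2.43 CPM in fasted libraries, with a log2 fold change of -4.08 with replicates 1 and 2 and -2.50 with replicates 3 to 5. Tanc1, a postsynaptic scaffold gene (-2.26 ± 0.23), Ephb6, an ephrin receptor gene (-2.30 ± 0.24), and Rprm, which p53 induces (-2.73 ± 0.25), fell to under 5 CPM in every fasted library. The other 4 of the 20 were Mina (-2.33 ± 0.24), Phlda1 (-2.83 ± 0.20, with 33% of its exon bases shared with another annotated gene), Samd5 (-2.25 ± 0.28) and Adamtsl3 (-2.46 ± 0.27).

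A few abundant transcripts carried much of the gain in counts. Npy was at 16580, 16740, 16980, 15650 and 17390 CPM in fed and 66350, 65250, 46250, 46770 and 45350 CPM in fasted libraries, and Agrp was at 4750, 4516, 4607, 4259 and 4637 CPM in fed and 17470, 17830, 13250, 13110 and 13000 CPM in fasted libraries. Both rose in every fasted library (1.70 ± 0.094 and 1.71 ± 0.088, edgeR adjusted p = 1.03e-14 and 1.79e-15) and were highest in fasted replicates 1 and 2. With replicates 1 and 2 the log2 fold change was 1.96 for Npy and 1.94 for Agrp, and with replicates 3 to 5 it was 1.47 and 1.53. The gains of these 2 genes were 17.8% of the summed gain in mean CPM over all genes that gained, and the 15 largest gains were 29.6% of it. The 15 largest losses were only 8.03% of the summed loss, so losses were spread over more genes. Both groups of 15 were taken here over all tested genes, without the conditions of the naming rule. Among other large gains were the secretory granule genes Scg2 (1.33 ± 0.071) and Resp18 (0.83 ± 0.047), the nuclear non-coding RNA Malat1 (1.01 ± 0.086), the actin-binding thymosin gene Tmsb4x (1.24 ± 0.079), the transcription coactivator gene Sub1 (1.12 ± 0.048), the ferritin gene Fth1 (0.85 ± 0.042), the malate dehydrogenase gene Mdh1 (0.63 ± 0.041) and the protease inhibitor gene Cst3 (0.76 ± 0.055). Ctcf, on the other strand, covers 11.3% of Agrp's annotated exon bases, and reads from such bases cannot be assigned without strand.

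The 15 largest losses in CPM by the naming rule held 5 chaperone and co-chaperone genes beside genes of other roles. The HSP90 genes Hsp90ab1 (2833, 2870, 2696, 2736 and 2839 CPM in fed and 1590, 1474, 2040, 2264 and 2257 CPM in fasted libraries, -0.54 ± 0.080) and Hsp90aa1 (-0.27 ± 0.045) fell with their co-chaperones Stip1 (-1.20 ± 0.053) and Fkbp4 (-0.99 ± 0.10) and with Hsph1 (-1.76 ± 0.076). Hsp90ab1 was lowest in fasted replicates 1 and 2, with a log2 fold change of -0.89 there and -0.35 in replicates 3 to 5. Npy2r (chr3:82538383-82548084, minus strand), the inhibitory NPY receptor through which these neurons sense their own peptide, was at 417, 423, 436, 443 and 438 CPM in fed and 86.7, 73.5, 101, 115 and 103 CPM in fasted libraries (-2.17 ± 0.081). It fell in every fasted library. The 14-3-3 gene Ywhah (-0.67 ± 0.064), the actin gene Actg1 (-0.53 ± 0.059), the tubulin gene Tubb2a (-0.58 ± 0.12) and Pea15a, an ERK-binding adaptor (-0.54 ± 0.10), also fell.

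Abundance and gene structure went with the direction of change. Of the 93 genes with a mean of at least 1000 CPM, 65 rose and 10 fell, and of the 2053 genes from 100 to 1000 CPM, 54.4% rose and 23% fell. From 1 to 10 CPM, 20.2% rose and 28.4% fell. The 20% of genes with the shortest annotated exon length had a median log2 fold change of 0.20, against -0.06 to -0.10 in the other 4 length classes of equal size. The 20% with the highest GC content had a median of -0.22, against 0.08 in the 20% with the lowest. Both patterns were present with either set of fasted libraries, and with offsets for GC content and length 4048 genes rose and 3863 fell. Long non-coding RNAs (145 lincRNA genes) had a median of 0.31, against -0.04 for the 12170 protein-coding genes. How far length, GC content and abundance shape single changes was not tested.

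The sets of fasted libraries disagreed outright on 112 genes, 34 up and 78 down in replicates 1 and 2. Serpina3n, a protease inhibitor gene, was at 1326, 1289, 1294, 1322 and 1369 CPM in fed and 988, 1011, 1608, 1851 and 1898 CPM in fasted libraries. Map1b, a microtubule-associated protein gene, was at 1294, 1344, 1327, 1349 and 1303 CPM in fed and 1110, 1073, 1543, 1860 and 1908 CPM in fasted libraries. In both genes replicates 1 and 2 lay below and replicates 3 to 5 above every fed library, and the full comparison gave no call (0.16 ± 0.12 and 0.18 ± 0.10, edgeR adjusted p = 0.26 and 0.136). On the same libraries limma voom with sample weights called both higher (0.25 and 0.26, adjusted p = 0.00858 and 0.00249). The RNA ligase gene Rtcb (-0.42 and 0.38), the lysosomal gene Pld3 (-0.36 and 0.44) and Tmem130 (-0.38 and 0.27) had the same pattern of log2 fold changes in replicates 1 and 2 and in 3 to 5. Wdfy1 was opposite, at 95.7, 95.7, 40.8, 41.9 and 38.4 CPM in fasted and 59.3, 65.7, 61.3, 63.01 and 68.3 CPM in fed libraries. For these genes the fed and fasted groups of 5 cannot be summarised by 1 direction.

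A smaller group of abundant genes stayed near its level. Genes were counted by the 95% interval of the log2 fold change alone, so small changes that passed the test may be among them. For 311 genes it lay within -0.2 to 0.2, and 195 of them were among the 2146 genes with a mean of at least 100 CPM. They included Ran, the GTPase of nuclear transport (-0.14 to 0.03), the translation elongation gene Eef1g (-0.08 to 0.10), the proteasome genes Psmd7 (-0.06 to 0.13) and Psmc5 (-0.14 to 0.06) and the mitochondrial outer membrane genes Vdac3 (-0.02 to 0.17) and Cisd1 (-0.09 to 0.11). Ran was at 673, 702, 646, 693 and 698 CPM in fed and 665, 659, 640, 644 and 675 CPM in fasted libraries, so its groups overlapped. Scaled by library totals, all 6 were lower in fasted libraries and passed the test, so their level held only relative to the bulk of the genes, and Ran, Psmc5 and Cisd1 passed as lower with GC and length offsets too.

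Among pathways, 42 lists were counted, and each count below can be read against the 29.6% of all tested genes that rose and the 31.3% that fell. The single genes named from the lists were chosen for no overlap of fed and fasted values. They also had to be called with the full group and with either set, and their edgeR adjusted p was at most 0.00361. For them, a level higher or lower in every fasted library thus follows from the choice. Scaling by library totals lowers every list's median by about 0.26.

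Second-messenger pathways changed in parts rather than as a whole. Of 20 genes of protein kinase A and CREB, 8 rose and 9 fell. Prkar2b, the regulatory subunit that holds protein kinase A inactive in many neurons, was at 276, 292, 264, 289 and 269 CPM in fed and 93.8, 66.8, 86.1, 84.1 and 63.8 CPM in fasted libraries (-1.82 ± 0.12, edgeR adjusted p = 3.14e-13), well below the fed range in both sets. The inhibitor gene Pkia fell (-1.11 ± 0.094) while its relative Pkib rose (1.17 ± 0.13), and Creb1 fell (-1.16 ± 0.14) while Crem, which encodes both activators and repressors of the same sites, rose (1.09 ± 0.12). Of 17 cyclic nucleotide phosphodiesterases, which break down cAMP and cGMP, 5 rose and 5 fell, with Pde1c up (1.97 ± 0.15) and Pde1b (-1.59 ± 0.21), Pde4a (-1.02 ± 0.20) and Pde4b (-1.43 ± 0.29) down. Of 30 genes of calcium and calmodulin signalling, 7 rose and 14 fell (median -0.21, -0.07 with GC and length offsets and with fasted replicates 3 to 5). Calm2 (0.67 ± 0.046), Camk1g (0.99 ± 0.084) and Camk2d (0.59 ± 0.067) rose, and Camkv (-1.60 ± 0.16), Hpcal4 (-1.48 ± 0.10), Camk2a (-1.25 ± 0.10) and Camk4 (-0.72 ± 0.088) fell.

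Energy-sensing genes likewise held rises and falls, at shares near those of all tested genes. Of 20 genes of AMPK, the kinase that low cellular energy activates, and of the salt-inducible kinases, 6 rose and 7 fell (median -0.25, and -0.05 with GC and length offsets). The catalytic subunit gene Prkaa1 was at 52.3, 49.2, 51.5, 49.5 and 49.4 CPM in fed and 34.95, 26.99, 22.1, 28.4 and 16.7 CPM in fasted libraries (-0.97 ± 0.12), lower in all 5. Strada, of the kinase complex upstream (-0.70 ± 0.11), and the CREB coactivator gene Crtc1 (-0.63 ± 0.11) fell too. Of 36 genes of mTORC1 and amino acid sensing, 13 rose and 12 fell. Rheb, the GTPase that switches mTORC1 on (0.58 ± 0.050), Lamtor3 (0.53 ± 0.063) and the inhibitors Tsc1 (0.81 ± 0.10) and Sesn1 (1.11 ± 0.11) rose, and the mTOR inhibitor Deptor (-1.37 ± 0.17), Sesn3 (-0.88 ± 0.14) and Nprl2 (-0.56 ± 0.086) fell.

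Growth factor, Wnt and hormone receptor genes moved in both directions. Of 30 genes of neurotrophins and growth factor receptors, 10 rose and 11 fell, among them the GDNF receptor gene Gfra1, at 9.11, 13.6, 11.7, 11.3 and 13.7 CPM in fed and 40.6, 40.4, 41.1, 58.8 and 50.2 CPM in fasted libraries (1.96 ± 0.15), and the BDNF receptor gene Ntrk2 (0.47 ± 0.064). Gfra1 was higher in every fasted library, and Nrp1 (-1.66 ± 0.14) and Erbb4 (-1.38 ± 0.22) were lower. Of 25 Wnt pathway genes, 4 rose and 11 fell (median -0.35, and -0.21 with GC and length offsets), with the receptor gene Fzd6 (1.94 ± 0.24) and the secreted inhibitor gene Sfrp1 (1.48 ± 0.18) up and the transducer genes Dvl1 (-0.82 ± 0.12) and Gsk3b (-0.39 ± 0.064) down. Of 45 nuclear receptors and coregulators, 12 rose and 19 fell (median -0.24). The glucocorticoid receptor gene Nr3c1 rose (0.57 ± 0.061) and the mineralocorticoid receptor gene Nr3c2 fell (-1.09 ± 0.14). The coactivator genes Ncoa2 (1.32 ± 0.13) and Ppargc1a (0.67 ± 0.15) rose while Ncoa4 fell (-0.85 ± 0.11). Id2, a repressor of basic helix-loop-helix factors and a BMP target, rose (2.36 ± 0.12).

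**Figure D4:**
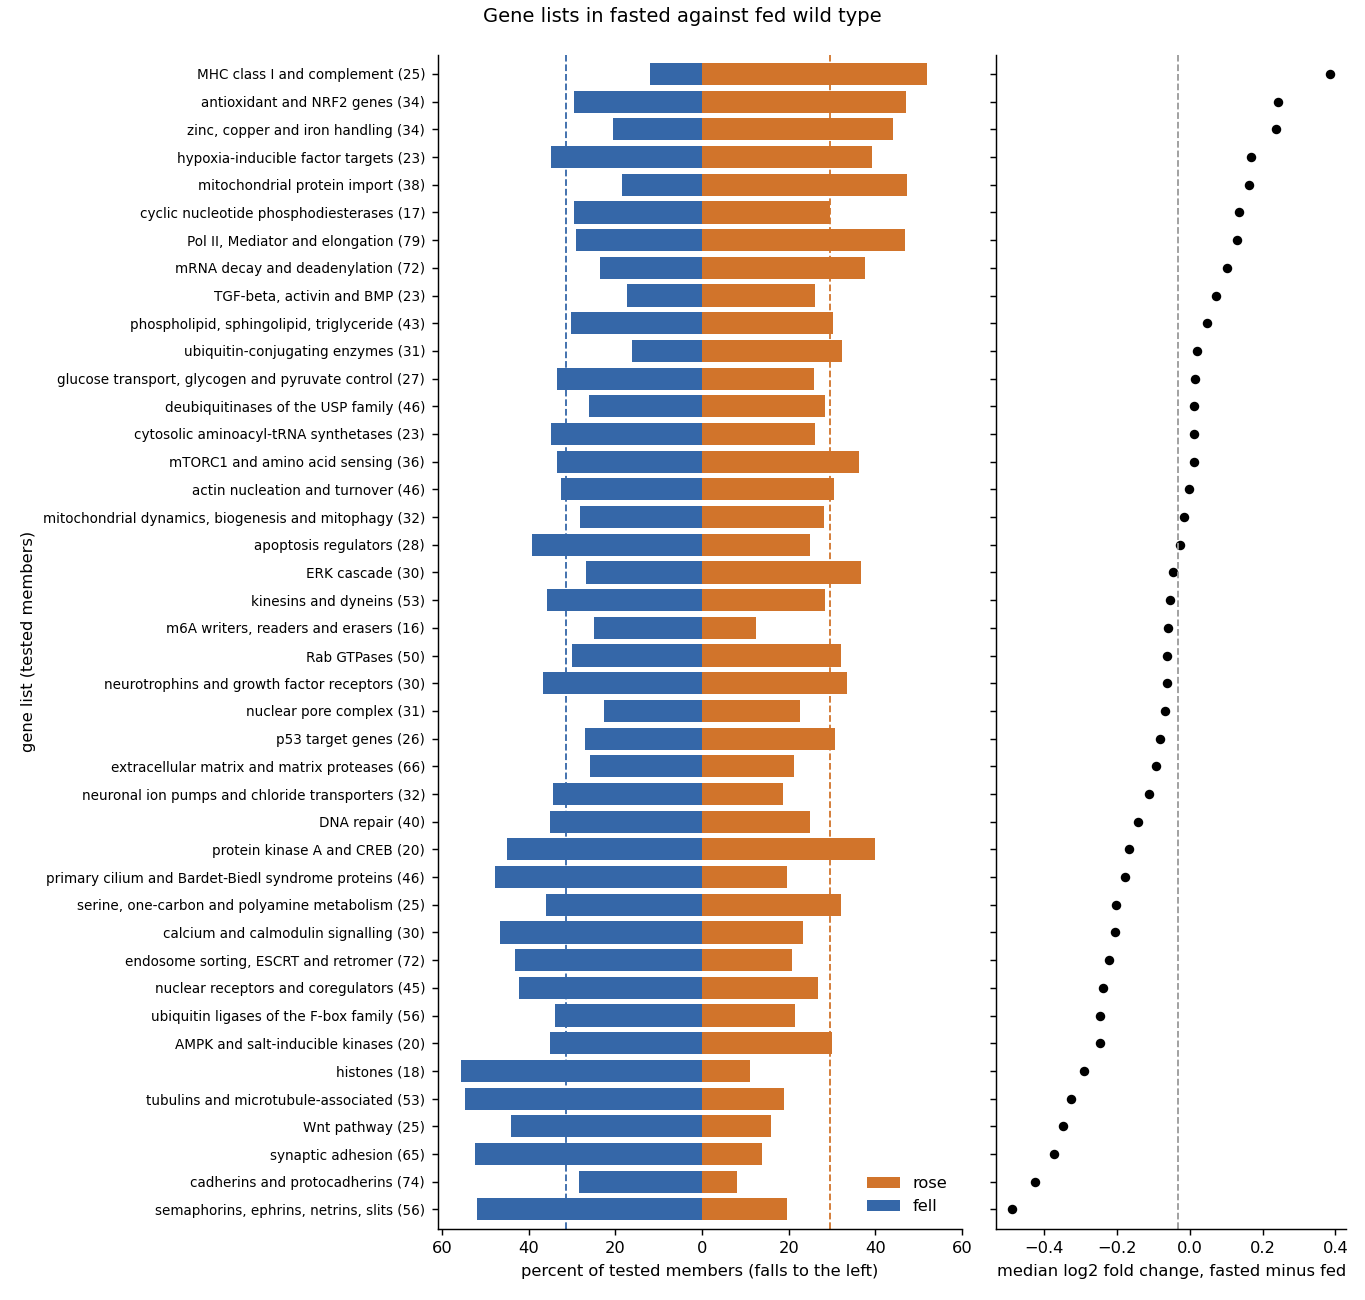
For 42 gene lists, with the number of tested members in parentheses, the left panel gives the percent of members that rose (orange) and fell (blue) in edgeR's test, with dashed lines at 29.6% and 31.3% for all tested genes, and the right panel the median log2 fold change, with a dashed line at -0.03 for all tested genes. Lists of MHC class I with other surface and lysosomal genes, of antioxidant genes and of metal-handling genes lie at the top. Those of axon guidance, cadherin and synaptic adhesion genes lie at the bottom.

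Stress and damage genes did not move as 1 block. Of 26 p53 target genes, 8 rose and 7 fell. The 2-fold test was passed by 6 of the rises, Cdkn1a among them, and by 1 of the falls. Over all tested genes, 3.84% rose and 3.14% fell by that test. Brca2 (15.9, 15.7, 16.5, 17.1 and 17.8 CPM in fed and 57.3, 53.2, 61.7, 51.9 and 59.7 CPM in fasted libraries, 1.77 ± 0.098) and Xpa (1.35 ± 0.083), both of DNA repair, rose. The repair kinase gene Prkdc fell (-1.52 ± 0.19), and the 40 repair genes held 10 rises and 14 falls. Brca2 was about as high in either set of fasted libraries. Of 34 antioxidant and NRF2 genes, 16 rose and 10 fell (median 0.24, 0.13 with GC and length offsets, 0.11 with fasted replicates 1 and 2 and -0.02 scaled by totals). Besides Srxn1, the peroxiredoxin gene Prdx4 (0.93 ± 0.058) and Gclc of glutathione synthesis (0.61 ± 0.070) rose, and the reductase genes Txnrd1 (-0.95 ± 0.070) and Gsr (-0.93 ± 0.088) fell. Of 34 genes of zinc, copper and iron handling, 15 rose and 7 fell (median 0.24, 0.12 with fasted replicates 1 and 2 and -0.03 scaled by totals), with Mtf1, the factor that induces metallothioneins (0.92 ± 0.083), and the copper chaperone gene Atox1 (0.79 ± 0.067) up. The rise of Atox1 did not pass with GC and length offsets (log2 fold change 0.11). Of 23 targets of hypoxia-inducible factors, 9 rose and 8 fell, with Ndrg1 (-1.64 ± 0.15) and P4ha1 (-0.91 ± 0.074) down.

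Genes of transcription by RNA polymerase II and of mRNA decay rose more often than they fell after TMM scaling, while their medians were below 0 scaled by library totals. Of 79 genes of RNA polymerase II, Mediator and elongation factors, 37 rose and 23 fell (median 0.13, 0.07 with fasted replicates 1 and 2 and -0.13 scaled by totals), led by Ell2, an elongation factor gene at 17.2, 17.9, 17.5, 13.3 and 11.6 CPM in fed and 108, 108, 68.01, 81.8 and 77.3 CPM in fasted libraries (2.51 ± 0.16), and with the initiation factor gene Gtf2b (1.07 ± 0.058). Ell2 was higher in all fasted libraries, and most in replicates 1 and 2. Of 72 genes of mRNA decay and deadenylation, 27 rose and 17 fell (median 0.10, -0.16 scaled by totals), and Btg1 (2.33 ± 0.076) and Lsm8 (1.36 ± 0.10) rose with Btg2. Of 16 genes of the RNA mark m6A, 2 rose and 4 fell, with the reader gene Ythdc1 up (0.82 ± 0.074) and the writer genes Mettl14 (-1.01 ± 0.12) and Wtap (-0.61 ± 0.072) down. Of 56 F-box genes of ubiquitin ligases, 12 rose and 19 fell, with Fbxo4 up (1.63 ± 0.097) and the iron-sensing Fbxl5 down (-0.78 ± 0.064). Of 46 deubiquitinases of the USP family, 13 rose and 12 fell, with Usp16 (1.32 ± 0.10) and Usp2 (1.89 ± 0.24) up and Usp10 (-1.02 ± 0.096) down.

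Metabolic genes changed in single steps. Of 38 genes of mitochondrial protein import, 18 rose and 7 fell (median 0.16, 0.27 with fasted replicates 1 and 2, 0.04 with GC and length offsets and -0.10 scaled by totals), with the receptor gene Tomm20 up (0.56 ± 0.047) and the chaperonin gene Hspd1 down (-0.67 ± 0.064). Of 27 genes of glucose transport, glycogen and pyruvate control, 7 rose and 9 fell. Pdk2, which encodes a kinase that blocks pyruvate dehydrogenase, was at 27.96, 26.6, 31.9, 34.2 and 29.9 CPM in fed and 12.4, 8.91, 10.8, 18.2 and 14.01 CPM in fasted libraries (-1.22 ± 0.14). The opposing phosphatase gene Pdp1 rose (0.60 ± 0.075), the pyruvate carrier gene Mpc2 rose (0.49 ± 0.065) and the hexokinase gene Hk1 fell (-0.57 ± 0.076). Of 25 genes of serine, one-carbon and polyamine metabolism, 8 rose and 9 fell, with the folate enzyme genes Mthfd1 (30.6, 31.4, 27.8, 28.8 and 30.8 CPM in fed and 9.47, 11.4, 9.22, 10.8 and 8.61 CPM in fasted libraries, -1.59 ± 0.12) and Mthfd2 (-1.16 ± 0.12) down and the spermidine synthase gene Srm up (0.66 ± 0.064). Mthfd1 and Pdk2 were lower in every fasted library. Of 43 genes of phospholipid, sphingolipid and triglyceride metabolism, 13 rose and 13 fell, with Lpin1 (1.11 ± 0.10) and Cds1 (1.68 ± 0.14) up and the lipid droplet coat gene Plin2 down (-1.50 ± 0.20). Of 32 ion pumps and chloride transporters, 6 rose and 11 fell, with the sodium pump subunit gene Atp1b3 (0.98 ± 0.056) and the sodium-calcium exchanger gene Slc8a1 (0.82 ± 0.099) up and the calcium pump gene Atp2b2 down (-0.72 ± 0.074).

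Genes of axon guidance and synaptic adhesion fell more often than they rose, and cadherins seldom rose. Of 56 semaphorin, plexin, ephrin, netrin and slit genes, which guide axons, 11 rose and 29 fell (median -0.49, and -0.25 with GC and length offsets). Epha4, an ephrin receptor gene, was at 35.9, 31.6, 29.8, 37.1 and 35.4 CPM in fed and 9.35, 7.49, 7.81, 6.98 and 5.41 CPM in fasted libraries (-2.20 ± 0.15, edgeR adjusted p = 7.04e-13), and the netrin receptor gene Neo1 fell too (-0.91 ± 0.089). Against this trend Ntng1, a netrin-family adhesion gene, was at 5.66, 4.16, 5.92, 2.88 and 4.42 CPM in fed and 33.4, 36.04, 26.8, 24.6 and 33.5 CPM in fasted libraries (2.73 ± 0.18), higher in all 5. The ephrin gene Efnb2 rose too (1.65 ± 0.14). Of 65 synaptic adhesion genes, 9 rose and 34 fell (median -0.37, and -0.19 with GC and length offsets), among them the synapse organiser gene Cbln4, at 45.1, 54.1, 53.96, 55.2 and 52.9 CPM in fed and 7.25, 10.7, 16.3, 15.3 and 19.97 CPM in fasted libraries (-1.90 ± 0.19), Nrcam (-1.16 ± 0.10) and Adgrl2 (-1.19 ± 0.11). Cbln4 was lowest in fasted replicates 1 and 2. Of 74 cadherins and protocadherins, 6 rose, 21 fell and 47 were not called (median -0.43). Their share of falls was thus below the 31.3% of all tested genes. Cdh10 fell (-1.53 ± 0.19), and Cdh18 (1.44 ± 0.14) and Pcdh20 (1.11 ± 0.078) rose. In the extracellular matrix list, with 14 rises and 17 falls in 66, the metalloprotease inhibitor gene Timp1 rose (1.51 ± 0.19).

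Of 53 tubulins and microtubule-associated proteins, 10 rose and 29 fell (median -0.33). Tppp3, which stabilises microtubules, was at 167, 188, 180, 194 and 173 CPM in fed and 28.6, 23.9, 48.5, 48.6 and 42.8 CPM in fasted libraries (-2.22 ± 0.17, edgeR adjusted p = 6.25e-12), and lowest in replicates 1 and 2. The tau gene Mapt (-0.89 ± 0.058) and the tubulin genes Tubb3 (-0.80 ± 0.069) and Tubb4b (-0.72 ± 0.058) fell in all fasted libraries of both sets, though near-identical tubulin copies can share reads. Kinesins and dyneins, with 15 rises and 19 falls in 53, and genes of actin nucleation and turnover, with 14 rises and 15 falls in 46, had shares near those of all genes. Among them were the axonal motor genes Kif5a (-0.67 ± 0.072) and Kif3a (-0.61 ± 0.054) and the actin regulator genes Evl (-1.28 ± 0.10) and Wasf1 (-1.11 ± 0.12), which fell, and the dynein light chain gene Dynlt1b, which rose (1.21 ± 0.085). Of 46 genes of the primary cilium, the antenna-like organelle whose defects cause syndromes with obesity, 9 rose and 22 fell (median -0.18, and -0.30 with fasted replicates 3 to 5), with Ift80 (41.7, 43.3, 41.2, 42.7 and 43.6 CPM in fed and 12.5, 14.8, 10.6, 14.2 and 10.4 CPM in fasted libraries, -1.77 ± 0.16) and Bbs7 (-1.04 ± 0.10) down and Ift20 (1.08 ± 0.084) and Bbs5 (0.85 ± 0.092) up. Ift80 was lower in every fasted library.

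Genes of membrane traffic moved in both directions. Of 72 genes of endosome sorting, ESCRT and retromer, 15 rose and 31 fell, with the lipid transfer gene Vps13a down (-1.38 ± 0.11) and Chmp2a of ESCRT up (0.69 ± 0.055). Of 50 Rab GTPases, 16 rose and 15 fell, near the shares of all tested genes. Rab3b, of regulated secretion, was at 372, 348, 354, 352 and 352 CPM in fed and 1041, 1102, 809, 855 and 838 CPM in fasted libraries (1.38 ± 0.066, edgeR adjusted p = 4.22e-16), while Rab27a (-1.23 ± 0.13) and Rab27b (-0.86 ± 0.094), which also serve secretion, fell. Rab3b was higher in every fasted library and highest in replicates 1 and 2. The next list, of MHC class I, complement and antigen presentation, also held other surface and lysosomal genes, such as Cd47 and Cd68. Of 25 genes of MHC class I, complement and antigen presentation, 13 rose and 3 fell (median 0.39, 0.12 scaled by totals), including B2m, the shared light chain of MHC class I, at 197, 206, 199, 203 and 210 CPM in fed and 625, 621, 452, 442 and 469 CPM in fasted libraries (1.36 ± 0.079), H2-M3 (1.17 ± 0.10) and Cd47, a signal that spares cells from phagocytosis (0.43 ± 0.049).

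The sorted cells carried the markers of AgRP neurons, and their sum depended on feeding and on the set. The 10 markers summed to 21200 to 23300 CPM in fed libraries, 84100 to 85000 in fasted replicates 1 and 2 and 59700 to 61100 in replicates 3 to 5. Npy and Agrp made up most of this sum in every library. Of the 10 markers, 6 rose and 2 fell, and Npy2r, described above, was among the falls. Besides Agrp and Npy, Ghsr, the ghrelin receptor gene, was at 51.02, 45.5, 43.2, 40.5 and 48.3 CPM in fed and 160, 133, 119, 124 and 136 CPM in fasted libraries (1.55 ± 0.11), and Corin, a protease gene (1.05 ± 0.14), and the transcription factor gene Isl1 (0.63 ± 0.057) rose. Otp was at 16.9, 17.01, 20.2, 17.4 and 18.9 CPM in fed and 20.7, 21.2, 18.4, 22.9 and 22.7 CPM in fasted libraries and did not pass (0.23 ± 0.11, edgeR adjusted p = 0.0738). It passed as higher with GC and length offsets (0.47, adjusted p = 0.000393), in DESeq2's test (adjusted p = 0.0437) and without fasted replicate 3 (adjusted p = 0.0424). Of the GABA synthesis genes, Gad2 rose (0.30 ± 0.054), but did not pass scaled by library totals (edgeR adjusted p = 0.547). Gad1 was at 342, 370, 357, 392 and 377 CPM in fed and 267, 233, 362, 451 and 474 CPM in fasted libraries, lower in replicates 1 and 2 and not in 3 to 5. In samples of sorted cells, a change in the share of AgRP neurons and a change in RNA per cell cannot be told apart.

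Markers of other cells also moved. Astrocyte markers summed to 200 to 296 CPM in fed and 197 to 230 CPM in fasted libraries, and of 7 tested Aldh1l1 (1.47 ± 0.42) and Agt rose and Aldoc, which neurons can also express, fell (-0.36 ± 0.092). Slc1a3 was at 4.21, 8.65, 0.434, 0.676 and 0 CPM and Gja1 at 8.299, 5.29, 0.325, 0 and 0 CPM in fasted replicates 1 to 5, against 0.138, 0.7897, 0, 2.02 and 0.0803 CPM and 0, 1.51, 0, 3.12 and 0.0803 CPM in fed libraries, and neither passed with the full group (edgeR adjusted p = 0.0645 and 0.194). Both passed with fasted replicates 1 and 2 alone (3.38 and 2.84, adjusted p = 0.00304 and 0.01), the libraries that also carried Cga. Both also passed without fed replicate 4 (3.37 and 2.75, adjusted p = 0.0164 and 0.0478), and Slc1a3 did so without any 1 of fasted replicates 3 to 5. Oligodendrocyte markers summed to 90.6 to 104 CPM in fed and 49.1 to 73.5 CPM in fasted libraries, and of 4 tested 3 fell, Cnp (-1.34 ± 0.15) and Mbp (-0.43 ± 0.11) among them. Mog, Cldn11 and Ermn stayed under 0.5 CPM throughout. Endothelial markers summed to 0.345 to 3.13 CPM in fed and 4.91 to 8.72 CPM in fasted libraries, and both tested genes, Pecam1 (3.04 ± 0.61) and Ly6c1 (2.76 ± 0.64), rose. Cldn5, Flt1, Slco1a4, Kdr and Cdh5 stayed under 0.5 CPM in all. Pomc neuron markers summed to 374 to 473 CPM in fed and 408 to 496 CPM in fasted libraries. Of 3 tested, 0 rose and 1 fell, and Cartpt did not pass (0.08 ± 0.11, edgeR adjusted p = 0.54). The kisspeptin neuron list summed to 11.3 to 15.3 CPM in fed and 33.6 to 60.3 CPM in fasted libraries, and both tested genes, Pdyn (1.98 ± 0.19) and Esr1 (0.99 ± 0.26), rose. Esr1 did not pass with fasted replicates 1 and 2 alone, and Kiss1 and Tac2 stayed under 0.5 CPM. Markers of glutamate neurons of the ventromedial nucleus summed to 22.6 to 31.9 CPM in fed and 11 to 15 CPM in fasted libraries, without overlap, and Adcyap1 fell (-1.05 ± 0.16). The part that traces of other cells play in the changes was not tested.

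Fasted replicates 1 and 2 also carried a transcript that was close to absent from the other wild-type libraries. Cga, the alpha subunit gene of pituitary glycoprotein hormones and a member of the pituitary list, was at 96.3 and 77.2 CPM there and at most 0.108 CPM in the other 8 libraries, with no count in any fed library. It was called with replicates 1 and 2 alone and not with replicates 3 to 5 alone. Gh and Prl, the most abundant pituitary hormone genes, stayed under 0.5 CPM in all 10 libraries, but Tshb of the same list did not. The whole list summed to at most 0.345 CPM in fed libraries and 0.434 CPM in fasted replicates 3 to 5. Tshb thus reached 0.5 CPM only in fasted replicates 1 or 2, where 3 counts make 0.35 and 0.387 CPM. Of Cga's exon bases, 32% are shared with Platr9. Cck, a peptide gene outside the naming rule that was picked after its values were seen, was at 15.4 and 18.3 CPM in the same 2 libraries and at most 0.45 CPM in the others.

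**Figure D5:**
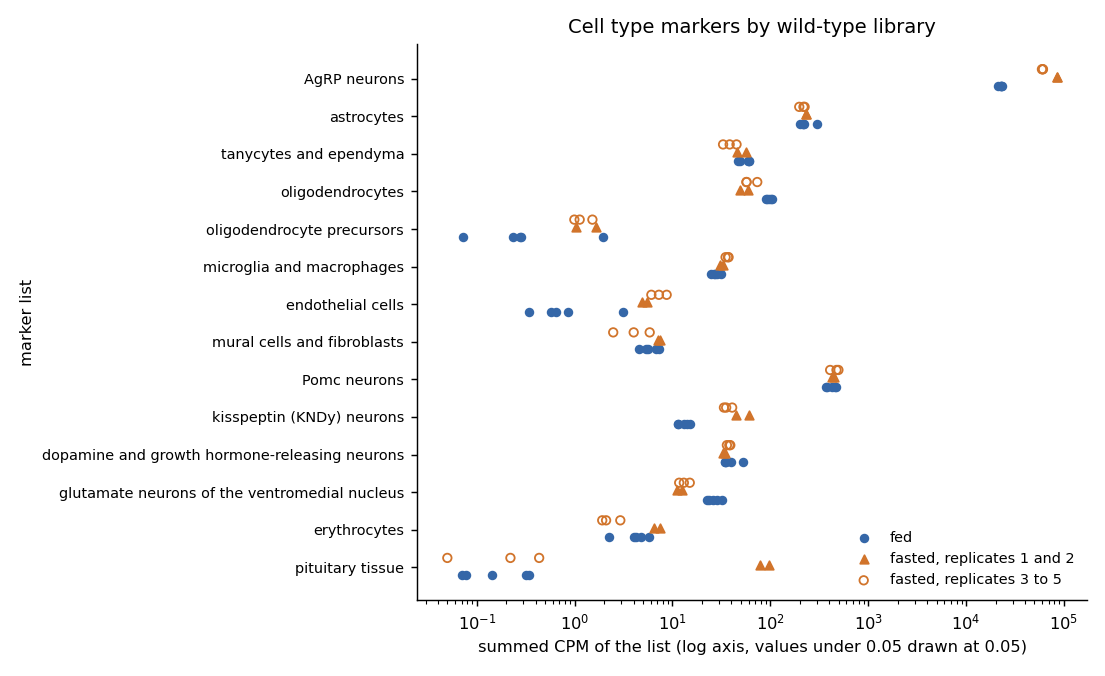
Summed CPM of 14 marker lists on a log axis in each wild-type library, with fed libraries in blue, fasted replicates 1 and 2 as orange triangles and fasted replicates 3 to 5 as open circles. The AgRP neuron list lies above all others and separates fed, fasted replicates 3 to 5 and fasted replicates 1 and 2, and the pituitary list separates fasted replicates 1 and 2 from the rest through Cga.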

How the data were processed

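RNA from sorted tdTomato-positive cells was sequenced in 20 libraries, and the 10 wild-type ones are described here. The authors deposited raw counts per gene symbol. Per the submitters' processing notes, Trimmomatic 0.36, HISAT2 2.1.0, featureCounts of Subread 1.6.2, DESeq2 1.20.0 and the genome GRCm38 (mm10) were used. For counting, annotation and strand handling were not given in the sources used here. A second, scaled table was left out.

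In R 4.3.3, edgeR 4.0.16 fitted all 20 libraries with 4 group means, so that the groups share 1 estimate of the spread, after TMM scaling and filterByExpr (minimum count 10, minimum total 15). The quasi-likelihood test was adjusted by Benjamini-Hochberg over all 13237 tested genes, and glmTreat tested against 2-fold. The code was tested on simulated data. limma 3.58.1 and DESeq2 1.42.0 served as alternatives. Gene models came from GENCODE M21 (22071 symbols matched, 12713 of the tested ones) and promoters from RefSeq.

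The members and lists were chosen with earlier results of these data known. Named genes were, first, Phf6, Agrp and Npy. Next came the 20 largest rises and falls, the 15 largest gains and losses in CPM and up to 4 rises and 4 falls of each list, all without numbered gene models, called alike with both sets of fasted libraries and with no overlap of fed and fasted values. The large rises and falls also had a mean log2 CPM of at least 2. Last came the 10 clearest genes of opposite sign and the cell type markers. The 15 genes with the narrowest 95% interval within -0.2 to 0.2, at 100 CPM or more, were named too. The text names a subset. A few named genes and 1 list are not reported here.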

Additional observations from a re-analysis of the deposited data

Results flagged for a closer look

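For the genes named above, each group of 5 libraries was searched for a single value far from the other 4. The gap to the nearest value, divided by the whole range, passed Dixon's limit of 0.71 in 22 of 412 groups of values (5.34%), where chance gives about 1 in 20. Of these, 18 were in fed and 4 in fasted libraries. Values are CPM, with the range of the other 4 libraries after each.

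High in 1 fed library were Cd68 in fed replicate 2 (1.87, others 0.828 to 1.12), Hmgb2 in fed replicate 3 (12.6, others 7.48 to 8.83), Irf3 in fed replicate 5 (15.1, others 12.3 to 12.8) and Tanc1 in fed replicate 1 (12.2, others 9.35 to 10.1). Fzd6 in fed replicate 4 (3.50, others 1.64 to 2.09), Gclc in fed replicate 4 (78.0, others 67.1 to 69.5), Gtf2b in fed replicate 2 (202.9, others 192.7 to 195.6), Fbxo4 in fed replicate 2 (23.0, others 16.7 to 17.5), Rab3b in fed replicate 1 (372, others 348 to 354) and Aldoc in fed replicate 4 (278, others 187.5 to 209.6) were high as well.

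Low in 1 fed library were Zfpm2 in fed replicate 4 (8.88, others 11.6 to 12.3), Cst3 in fed replicate 3 (1367, others 1398 to 1407), Tmem130 in fed replicate 2 (806, others 875 to 895), Lamtor3 in fed replicate 1 (92.4, others 111 to 116), Cbln4 in fed replicate 1 (45.1, others 52.9 to 55.2), Cnp in fed replicate 1 (32.4, others 37.9 to 40.2) and Mt2 in fed replicate 2 (2.37, others 3.25 to 3.58). High in 1 fasted library were Nrp1 in fasted replicate 4 (13.5, others 8.52 to 9.54), Gsr in fasted replicate 3 (27.6, others 21.96 to 23.4) and Rab27b in fasted replicate 5 (52.3, others 35.2 to 39.4). Among markers of endothelial cells, Pecam1 was high in fasted replicate 5 (3.86, others 1.52 to 1.68) and Ly6c1 in fed replicate 5 (2.25, others 0.069 to 0.287).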

How the results depend on the processing

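Of 144 counts of called genes and depth ratios under the alternatives, 139 stayed within 1.5 times the value reported, and the other 5 all came from scaling by library totals: 2458 rises, 6229 falls, 797 falls of more than 2-fold, 1751 rises alike in both sets and 4716 falls alike. Leaving out 1 library at a time gave 3776 to 3881 rises, 3926 to 4071 falls, 476 to 513 rises and 381 to 435 falls of more than 2-fold, 2452 to 2745 rises and 2410 to 2767 falls alike, and a fasted to fed ratio of total counts of 0.757 to 0.791. With the replicate number as a block, 3902 genes rose and 4188 fell. Same-numbered fed and fasted samples did not deviate together (correlations -0.014, 0.012, -0.005, -0.011 and 0.037), so no pairing by number was seen. The deviations of fasted samples also hold their split into sets, so these correlations cannot show that pairing was absent.

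Of 188 called genes named above, 184 kept direction and call under every alternative run. Most of them were named because they were called alike with both sets and without overlap of fed and fasted values. Their calls with either set were thus fixed by the choice, and the share does not describe genes in general. Atox1 lost its call with GC and length offsets (0.11, adjusted p = 0.0892), Cga with fasted replicates 3 to 5 only (adjusted p = 0.528), Gad2 with library totals (adjusted p = 0.547) and Esr1 with fasted replicates 1 and 2 only (adjusted p = 0.0619). limma voom with sample weights called Serpina3n, Map1b, Rtcb and Pld3 higher and Wdfy1 lower, all without a call in edgeR. Genes without a call took the opposite sign, with a call, in these cases. With fasted replicates 1 and 2 only the log2 fold change was -0.42 for Serpina3n, -0.30 for Map1b, -0.42 for Rtcb, 0.57 for Wdfy1, -0.36 for Pld3 and -0.38 for Tmem130, and with fasted replicates 3 to 5 only it was 0.23 for Gad1. With library totals it was -0.26 for Eef1g, -0.23 for Psmd7, -0.19 for Vdac3 and -0.25 for Cisd1, and with GC and length offsets -0.40 for Cisd1. The causes were not tested. Lower totals in fasted libraries make genes of few counts less precise there.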
